A study of Mus musculus with 10 samples.

Results

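The collagen chain genes of the mouse liver were followed in 2 models of bile duct inflammation and in untreated animals. A collagen chain gene was any row of the expression table whose symbol had the form Col, a number, a and a number, and 44 of 59408 gene models met that rule. Of the 44 genes, 30 reached 10 or more in 3 or more of the 10 libraries and were tested among 18390 gene models. By class, the tested genes were 9 of 11 fibrillar chains, 5 of 8 basement membrane chains, 4 of 9 FACIT chains (collagens that sit on the surface of fibrils) and 12 of 16 other chains. No collagen row merged several genes under 1 model.

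Total RNA of whole livers from wild-type C57BL/6 mice was sequenced as polyadenylated, strand-marked libraries, with tissue taken on day 35. The PBC group, a model of primary biliary cholangitis, held 3 mice (7, 8 and 9) that were injected into the abdomen with 100 µg of 2-octynoic acid coupled to bovine serum albumin, in complete Freund's adjuvant on day 0 and in incomplete adjuvant on days 14 and 28. With the first 2 of these injections they received 2 µg of α-galactosylceramide, a glycolipid that activates natural killer T cells, by vein. The PSC group, a model of primary sclerosing cholangitis, held 3 mice (11, 13 and 14) fed 0.089% 3,5-diethoxycarbonyl-1,4-dihydrocollidine (DDC) for 2 weeks and, after 1 week of regular diet, for 1 more week. The control group held 4 untreated mice (1 to 4), which by their labels received no adjuvant, no glycolipid and no DDC, so that in the PBC group antigen, adjuvant and glycolipid cannot be told apart. Each library came from 1 numbered mouse, and the animals' sex and age were not given in the sources used here.

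Collagens are proteins of the extracellular matrix whose chains wind around each other into a triple helix. Fibrillar collagens such as types I, III and V form the cross-banded fibrils of scar tissue, type IV collagen forms the sheet-like network of basement membranes, and type VI collagen forms beaded filaments between these structures. In the liver, fibrillar collagen is made mainly by stellate cells and portal fibroblasts, and its deposition around bile ducts and along the sinusoids is what is meant by biliary and hepatic fibrosis.

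The libraries held 38272053 to 95422289 counted reads. Values are normalised reads, that is reads divided by a size factor for each library, and are given below in the order of the mouse numbers. Differences are on the log2(value + 1) scale, each is from a limma fit over all 10 libraries, and a gene was called at an adjusted p under 0.05 over all 18390 tested models. Control 2 had 13.7% of its value on the mitochondrial chromosome, against 5.13 to 8.67% in the other libraries. In PBC 7, 1 unnamed model on chromosome 17 took 4.24% of the value, against 0.331 to 0.831% elsewhere. Each call was repeated under 19 alternatives, which left out each library in turn or changed the pseudocount, the filter, the scaling (TMM, or equal totals in every library), the tool (edgeR or DESeq2 on the recovered reads) or the groups in the fit. For each collagen gene, a call lost under any of them is named with the adjusted p found there, and the same holds for the partner genes given with their values. For each list of partners or markers, the calls against controls kept under all 19 are counted or those lost are named.

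In PBC livers 13 of the 30 tested collagen genes rose against controls, where 7.6% of all tested models were called higher. These were 5 fibrillar, 3 basement membrane, 2 FACIT and 3 other chains, and the median log2 difference of the 30 genes was 0.91, beside 0.01 over all tested models. By limma 0 collagen genes were called lower, where 2.34% of all models were, and the count was also 0 at an unadjusted p under 0.05, in edgeR and in DESeq2.

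In PSC livers 15 of the 30 rose against controls, with 8.25% of all models called higher, and 2 fell, with 6.48% called lower. The genes that rose were 6 fibrillar, 2 basement membrane, 2 FACIT and 5 other chains, and those that fell were the fibrillar Col27a1 and the transmembrane Col13a1. The median log2 difference of the 30 was 1.38, beside 0.06 over all tested models. Both models were set against the same 4 controls, so their differences share those libraries.

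Set directly against each other, 8 collagen genes were lower in PBC livers than in PSC livers, where 1.13% of all models were called lower, and the median log2 difference of the 30 was -0.59, beside 0.02 over all tested models. The 8 were Col1a1, Col1a2, Col3a1 and Col5a2 among the fibrillar chains, Col4a1 and Col4a2 in the basement membrane class, and Col6a3 and Col8a1. By limma 0 were called higher in PBC livers, where 1.11% of all models were, while 4 were higher at an unadjusted p under 0.05, 0 in edgeR and 2 in DESeq2, Col13a1 (adjusted p = 0.0227) and Col27a1 (adjusted p = 0.0397). In bulk liver RNA, a change in the number of cells of a type and a change in RNA per cell cannot be told apart.

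**Figure D1:**
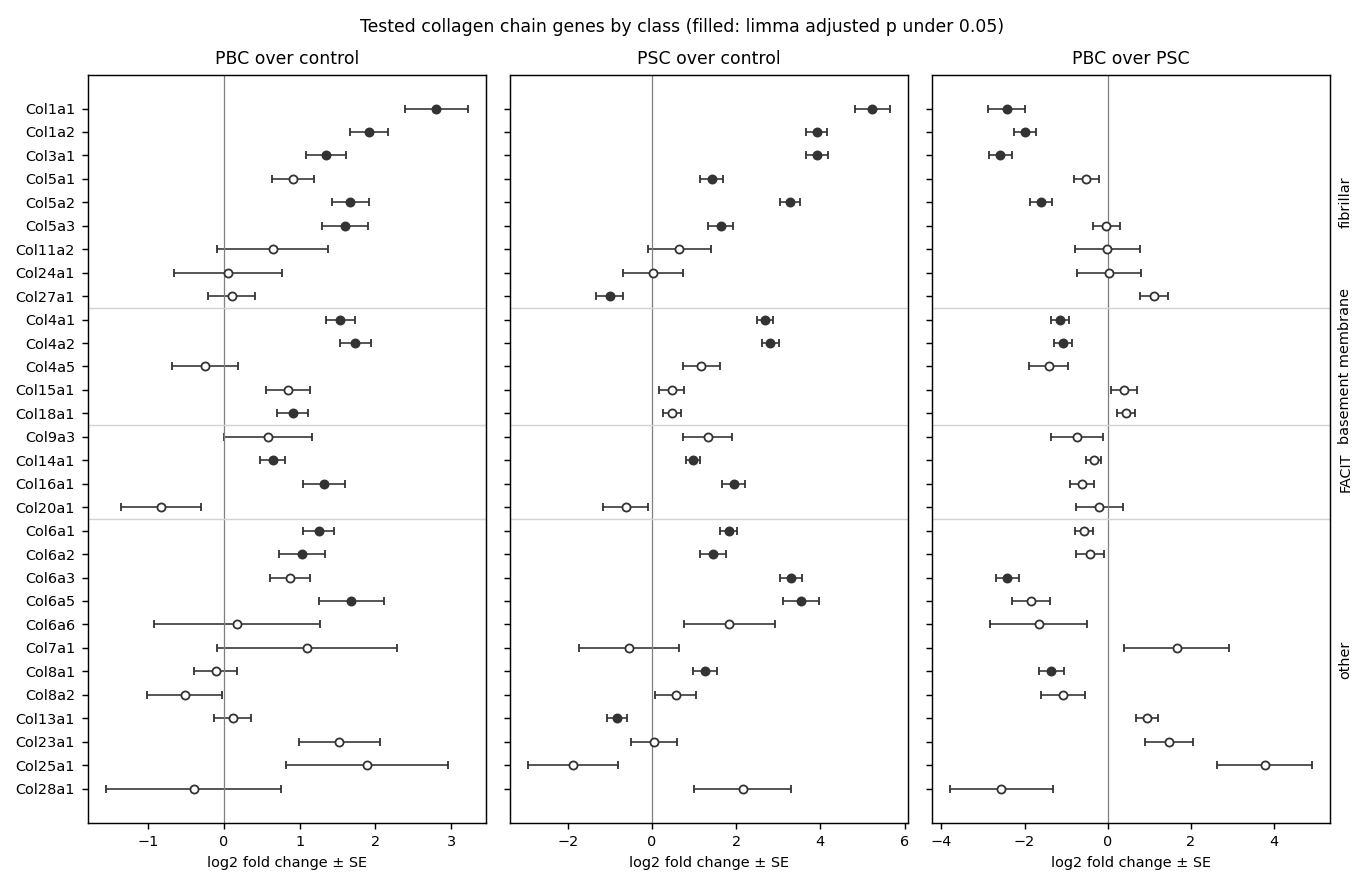
Log2 fold change with its standard error for the 30 tested collagen chain genes (rows, by class), in PBC over control (left), PSC over control (middle) and PBC over PSC (right); filled points are called at a limma adjusted p under 0.05. In the middle panel 15 filled points lie above 0 and 2 below, and in the right panel all 8 filled points lie below 0.

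Type I collagen, the most abundant fibrillar collagen of scar tissue, is made of the chains of Col1a1 (chr11:94936224-94953040 in the mm10 build, as deposited) and Col1a2 (chr6:4505618-4541543). Col1a1 had 1919.8, 668 and 649.6 normalised reads in PBC livers, 4793, 4542 and 6053 in PSC livers and 279.8, 105, 86.8 and 125 in control livers. The 3 groups did not overlap, and PBC 7 and control 1 were well above the others of their groups. Col1a1 differed by 2.80 (SE 0.42, adjusted p = 0.00112) in PBC against control, 6.99-fold, and by 5.24 (SE 0.42, adjusted p = 6.56e-06) in PSC against control, 37.8-fold, the widest rise among the 30. The direct difference of PBC against PSC was -2.43 (SE 0.44, adjusted p = 0.0121), and this call was lost without PSC 14 (adjusted p = 0.0738). Col1a2 had 3417, 1877 and 1822 normalised reads in PBC livers, 9208, 8239 and 9694 in PSC livers and 794, 567, 449.6 and 640.0 in control livers, and the groups were again apart. It differed by 1.92 (SE 0.25, adjusted p = 0.0005) in PBC and by 3.91 (SE 0.25, adjusted p = 1.26e-06) in PSC against controls, and by -1.99 (SE 0.27, adjusted p = 0.00232) in PBC against PSC.

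Type III collagen, a homotrimer that forms thin reticular fibres together with type I, is the product of Col3a1 (chr1:45311538-45349852). It had 6468, 3692 and 2713 normalised reads in PBC livers, 23139, 26193 and 22820.0 in PSC livers and 1803, 1228, 1913 and 1459 in control livers. No PSC liver came near the range of the PBC livers, and PBC 7 was the highest of its group. Col3a1 differed by 1.35 (SE 0.26, adjusted p = 0.00635) in PBC and by 3.93 (SE 0.26, adjusted p = 1.76e-06) in PSC against controls. The difference of PBC against PSC, -2.58 (SE 0.28, adjusted p = 0.000459), was the largest of the 8 that were called.

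Type V collagen is a minor fibrillar collagen built into type I fibrils, where it sets their diameter. Its chain gene Col5a2 (chr1:45374331-45503283) had 455, 465 and 267 normalised reads in PBC livers, 1234, 1113 and 1164 in PSC livers and 114, 135, 105 and 128 in control livers. The groups did not overlap, and the difference was 1.67 (SE 0.24, adjusted p = 0.000899) in PBC against control, 3.28 (SE 0.24, adjusted p = 3.6e-06) in PSC against control and -1.61 (SE 0.26, adjusted p = 0.00593) in PBC against PSC. Col5a1 had 333, 491 and 264 normalised reads in PBC livers, 428, 445 and 664 in PSC livers and 216, 222, 151 and 167 in control livers. Both disease groups lay above the controls and overlapped each other. Col5a1 rose in PSC livers by 1.42 (SE 0.27, adjusted p = 0.00493), and in PBC livers its difference of 0.91 (SE 0.27, adjusted p = 0.0523) was not called, though it passed with the stricter filter or DESeq2 (adjusted p from 0.0269 to 0.0448). Its difference of PBC against PSC was -0.51 (SE 0.29, adjusted p = 0.363). Col5a3, the third chain of type V, had 2288, 2262 and 2182 normalised reads in PBC livers, 2563, 2439 and 1942 in PSC livers and 553, 1053, 1193 and 437 in control livers. It rose in both models, by 1.59 (SE 0.30, adjusted p = 0.0056) in PBC and by 1.63 (SE 0.30, adjusted p = 0.00416) in PSC livers. PBC and PSC livers overlapped, with a difference of -0.04 (SE 0.33, adjusted p = 0.965). Col5a1 and Col5a3 were thus not called between the models, while Col5a2 was.

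Of the remaining fibrillar genes, Col27a1, best known from developing cartilage, ran the other way. It had 177, 180.0 and 184 normalised reads in PBC livers, 72.2, 84.1 and 93.7 in PSC livers and 98.5, 204, 161 and 243 in control livers. All 3 PSC livers lay below all controls, and the PBC livers fell inside the control range. It fell in PSC livers by 1.01 (SE 0.31, adjusted p = 0.0453), and was not called in PBC against control (0.11, SE 0.31, adjusted p = 0.865) or in PBC against PSC (1.11, SE 0.33, adjusted p = 0.108). The call in PSC was lost without PBC 7 or 9, or PSC 11, 13 or 14, or control 2, 3 or 4, and with no filter or equal totals (adjusted p from 0.052 to 0.146). Col11a2 and Col24a1 had values of 4.23 to 34.8 normalised reads, with overlapping groups and no call. Col2a1 and Col11a1 were below the filter, with highest values of 5.11 and 5.63.

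**Figure D2:**
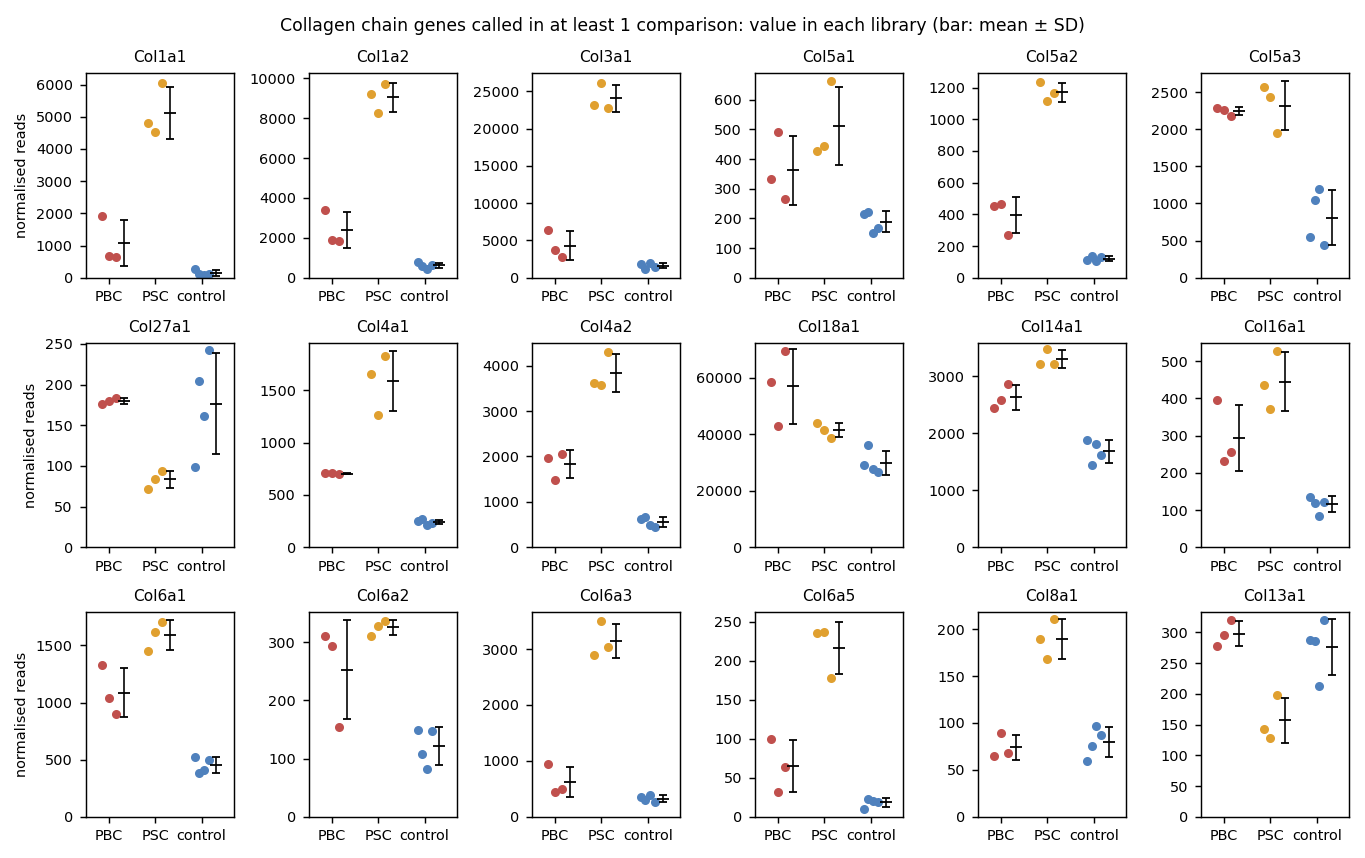
Value of each library, in normalised reads, for the collagen chain genes called in at least 1 comparison, with PBC, PSC and control livers from left to right and bars for the mean ± SD. For Col1a1, Col1a2, Col3a1 and Col5a2 the 3 groups do not overlap and the PSC livers are highest, while for Col27a1 and Col13a1 the PSC livers are lowest.

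Col3a1, Col1a2 and Col5a2 were called in all 3 comparisons and kept those calls under every alternative. For Col3a1 and Col1a2 the 250 bases before the RefSeq starts (GRCm38.p6) are shown, with Col3a1 at chr1:45311288-45311537 and Col1a2 at chr6:4505368-4505617, both on the plus strand. Capitals mark, on either strand, TATAAA as in a TATA box, the letters CCAAT of the box of that name, and GGGCGG as in a GC box.
Col3a1: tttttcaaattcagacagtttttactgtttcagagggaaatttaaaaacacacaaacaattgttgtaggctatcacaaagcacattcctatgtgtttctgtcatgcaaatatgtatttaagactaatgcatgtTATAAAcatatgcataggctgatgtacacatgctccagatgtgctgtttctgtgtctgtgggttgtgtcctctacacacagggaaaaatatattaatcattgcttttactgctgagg
Col1a2: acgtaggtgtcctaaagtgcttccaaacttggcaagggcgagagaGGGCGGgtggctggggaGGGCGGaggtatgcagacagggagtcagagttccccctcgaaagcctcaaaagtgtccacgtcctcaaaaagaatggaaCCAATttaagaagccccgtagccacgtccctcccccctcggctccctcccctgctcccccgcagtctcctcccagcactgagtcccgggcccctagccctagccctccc
The Col3a1 window held 1 TATAAA, no CCAAT and no GGGCGG, and its GC content was 35.2%. The Col1a2 window held 1 CCAAT, 2 GGGCGG and no TATAAA, and its GC content was 62.0%. Of the 30 tested genes, 26 had a RefSeq promoter entry, and the median GC content of the entries was 60%, beside 52.4% over all 32851 promoters. Counting both strands, GGGCGG was found in 17 of the 26 genes and in 32.7% of all promoters, CCAAT in 9 and in 33.8%, TATAAA in 3 (Col3a1, Col11a2 and Col13a1) and in 12.4%, and TGANTCA, the letters of an AP-1 element, in 1 (Col6a1) and in 6.75%. Each motif was counted on its own, and CCAAT read on the opposite strand can share letters with GGGCGG. A match here is a run of letters, and none was tested as a binding site.

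Type IV collagen is the network collagen of all basement membranes, and its main form joins the chains of Col4a1 (chr8:11198424-11312826) and Col4a2 (chr8:11312805-11449287). Col4a1 had 706, 706 and 703 normalised reads in PBC livers, 1661, 1268 and 1827 in PSC livers and 253, 266, 217 and 236 in control livers. The PBC livers were nearly equal to each other, and the 3 groups did not overlap. Col4a1 differed by 1.54 (SE 0.20, adjusted p = 0.000423) in PBC and by 2.69 (SE 0.20, adjusted p = 3.6e-06) in PSC against controls. Col4a2 had 1967, 1479 and 2053 normalised reads in PBC livers, 3622, 3579 and 4311 in PSC livers and 615, 670.0, 485 and 436 in control livers, with the groups apart, and differed by 1.74 (SE 0.21, adjusted p = 0.000273) in PBC and by 2.81 (SE 0.21, adjusted p = 3.6e-06) in PSC against controls. In PBC against PSC the differences were -1.15 (SE 0.21, adjusted p = 0.0117) for Col4a1 and -1.08 (SE 0.22, adjusted p = 0.0234) for Col4a2. The first of these calls was lost without PSC 11 or 14 (adjusted p from 0.0571 to 0.092), and the second without PBC 7 or 8, or PSC 11, 13 or 14 (adjusted p from 0.0543 to 0.142).

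The pair lies head to head on chromosome 8, and the deposited models share 22 bases, the only overlap of a tested collagen gene with another tested model. Those shared bases are shown because both genes begin in them, read on the plus strand of GRCm38.p6 at chr8:11312805-11312826, with 1 GGGCGG in capitals.
Col4a1 and Col4a2 overlap: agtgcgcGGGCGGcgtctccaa
Other pairs of neighbours in which both collagen genes were tested were Col3a1 and Col5a2, tail to tail on chromosome 1 with 24478 bases between them, Col6a2 and Col6a1 on chromosome 10 with 85161 bases between them, and Col6a6 and Col6a5 on chromosome 9 with 27908 bases between them. Col3a1 and Col5a2 were called in the same direction in all 3 comparisons, Col6a2 and Col6a1 in both models against control, and Col6a6 was called in none. Col4a5, a type IV chain best known from the kidney, lies head to head with Col4a6 on the X chromosome with 1340 bases between them, and had 87.0, 127 and 31.7 normalised reads in PBC livers, 185, 281 and 133 in PSC livers and 101, 61.6, 97.1 and 83.3 in control livers. All PSC livers were above all others, yet the difference of 1.17 (SE 0.44, adjusted p = 0.0882) in PSC against control was not called, and it passed without PBC 8 or 9, and with DESeq2 or the third group left out (adjusted p from 0.0246 to 0.0484). Col4a5 was not called in PBC against control (-0.25, SE 0.44, adjusted p = 0.761) or PBC against PSC (-1.42, SE 0.47, adjusted p = 0.135). Col4a3, Col4a4 and Col4a6 were below the filter, with highest values of 14.3, 14.9 and 12.8.

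Col18a1 (chr10:77052180-77166537) encodes type XVIII collagen, a basement membrane proteoglycan whose end fragment is endostatin and which hepatocytes also make. It had 58496, 43085 and 69377 normalised reads in PBC livers, 43997, 41607 and 38812 in PSC livers and 29022, 36236, 27808 and 26820.0 in control livers. Its PBC livers lay above all controls and overlapped the PSC livers. Col18a1 rose in PBC livers by 0.91 (SE 0.21, adjusted p = 0.015), a call lost without PBC 7 or 9, and with the third group left out (adjusted p from 0.0552 to 0.0883). In PSC livers the difference of 0.48 (SE 0.21, adjusted p = 0.137) was not called, although all 3 lay above all controls. Between PBC and PSC it was 0.43 (SE 0.22, adjusted p = 0.309). Col15a1, its close relative, had 430.2, 381 and 248 normalised reads in PBC livers, 281, 236 and 274 in PSC livers and 192, 177, 135 and 286 in control livers. Groups overlapped, and its differences of 0.85 (SE 0.29, adjusted p = 0.0777) in PBC and 0.46 (SE 0.29, adjusted p = 0.301) in PSC against controls were not called, though the first passed without control 4 (adjusted p = 0.0364).

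Among the FACIT chains, 2 rose in both models. Col14a1 (chr15:55307746-55520802), whose product lies along type I fibrils, had 2435, 2583 and 2863 normalised reads in PBC livers, 3212, 3484 and 3214 in PSC livers and 1882, 1435, 1806 and 1619 in control livers. Each group was apart from the next, but the steps were small, 0.64 (SE 0.17, adjusted p = 0.0295) in PBC and 0.98 (SE 0.17, adjusted p = 0.00246) in PSC against controls. The call in PBC was lost without PBC 7 or 9, or PSC 13 or 14, or control 2 or 4, and with equal totals or the third group left out (adjusted p from 0.0519 to 0.126). Col16a1 (chr4:130047840-130099282), a fibril-associated chain that also binds integrins, had 395, 231 and 256 normalised reads in PBC livers, 436, 370.4 and 528 in PSC livers and 136, 119, 84.3 and 122 in control livers. Both disease groups lay above all controls, and PBC 7 reached into the PSC range. It differed by 1.32 (SE 0.27, adjusted p = 0.00849) in PBC and by 1.94 (SE 0.27, adjusted p = 0.000638) in PSC against controls. Neither FACIT gene was called in PBC against PSC, with differences of -0.33 (SE 0.18, adjusted p = 0.336) for Col14a1 and -0.62 (SE 0.29, adjusted p = 0.273) for Col16a1. Col9a3 and Col20a1, at 5.55 to 69.0 normalised reads, were not called. Col12a1, the FACIT chain of dense connective tissue, was below the filter and had 4.97, 6.37 and 4.23 normalised reads in PBC livers, 4.69, 14.6 and 4.93 in PSC livers and 2.59, 7.70, 0 and 0 in control livers.

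Type VI collagen forms a beaded filament network that joins cells to fibrils, and its main form is built from the chains of Col6a1, Col6a2 and Col6a3. Col6a1 (chr10:76708792-76726044) had 1325, 1040.4 and 897 normalised reads in PBC livers, 1450.1, 1619 and 1707 in PSC livers and 522, 381, 409 and 501 in control livers. The groups were apart, with differences of 1.25 (SE 0.20, adjusted p = 0.00206) in PBC and 1.82 (SE 0.20, adjusted p = 0.000118) in PSC against controls. Col6a2 (chr10:76595756-76623630) had 311, 293 and 154 normalised reads in PBC livers, 311, 328 and 337 in PSC livers and 149, 108, 81.7 and 147 in control livers. PBC 9 lay just above the highest control, and the PBC and PSC livers met without overlap. It differed by 1.03 (SE 0.31, adjusted p = 0.0498) in PBC and by 1.46 (SE 0.31, adjusted p = 0.00782) in PSC, and the call in PBC was lost without PBC 7 or 8, or PSC 11, 13 or 14, or control 1, 2 or 3, and with a pseudocount of 0.5, no filter, TMM scaling, equal totals, edgeR or the third group left out (adjusted p from 0.0505 to 0.177). Between PBC and PSC neither was called, with differences of -0.56 (SE 0.22, adjusted p = 0.192) for Col6a1 and -0.43 (SE 0.33, adjusted p = 0.493) for Col6a2.

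Col6a3 (chr1:90766860-90843971), the longest of these chains and the source of the endotrophin fragment, had 935, 441 and 489 normalised reads in PBC livers, 2897, 3495 and 3040.3 in PSC livers and 346, 294, 393 and 259.6 in control livers. The PSC livers were far above both other groups. Among the PBC livers, PBC 7 was well above the controls, and PBC 8 and PBC 9 lay nearer to the highest control. Col6a3 rose in PSC livers by 3.29 (SE 0.26, adjusted p = 6.56e-06) and was lower in PBC than in PSC livers, with a difference of -2.42 (SE 0.28, adjusted p = 0.000747). In PBC against control its difference of 0.88 (SE 0.26, adjusted p = 0.0504) was not called, and it passed without PBC 8, or control 3, and with a pseudocount of 5, the stricter filter, edgeR or DESeq2 (adjusted p from 0.0169 to 0.0484). Col6a5 (chr9:105856070-105960643), whose chain can stand in for that of Col6a3, had 99.5, 31.9 and 63.5 normalised reads in PBC livers, 235, 236 and 177 in PSC livers and 10.4, 23.1, 20.4 and 19.4 in control livers. The groups did not overlap. It rose in PSC livers by 3.53 (SE 0.43, adjusted p = 0.00021) and in PBC livers by 1.68 (SE 0.43, adjusted p = 0.0262), the second call being lost without PBC 7 or 9, or control 1, and with no filter or the third group left out (adjusted p from 0.0531 to 0.115). Its difference of PBC against PSC, -1.85 (SE 0.46, adjusted p = 0.0537), was not called, and it passed without PBC 7, or control 1, and with a pseudocount of 5, equal totals, edgeR, DESeq2 or the third group left out (adjusted p from 0.00186 to 0.0499). Col6a6 had 0 to 25.9 normalised reads and was not called.

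Among the other chains, Col8a1, a short-chain network collagen of vessel walls, and Col13a1, a transmembrane collagen of cell adhesion sites, took opposite directions in PSC livers. Col8a1 (chr16:57624256-57754737) had 64.7, 89.2 and 67.7 normalised reads in PBC livers, 189, 168 and 210.3 in PSC livers and 59.6, 75.7, 97.1 and 87.5 in control livers. Its PSC livers were above all others, while PBC and control livers overlapped. It rose in PSC livers by 1.25 (SE 0.28, adjusted p = 0.012) and was lower in PBC than in PSC livers, with a difference of -1.35 (SE 0.30, adjusted p = 0.0357), with no call in PBC against control (-0.10, SE 0.28, adjusted p = 0.852). The first of these calls was lost without PSC 11 or 14 (adjusted p from 0.0501 to 0.0759), and the second without PBC 7 or 9, or PSC 11, 13 or 14, and with no filter (adjusted p from 0.068 to 0.189). Col13a1 (chr10:61838234-61979108) had 279, 296 and 319.5 normalised reads in PBC livers, 144, 128 and 199 in PSC livers and 288, 286, 212 and 321 in control livers. All 3 PSC livers lay below all others. Col13a1 fell in PSC livers by 0.83 (SE 0.24, adjusted p = 0.0385), a call lost without PSC 11, 13 or 14, or control 1, 2 or 4, and with no filter or equal totals (adjusted p from 0.0545 to 0.155). Its differences of 0.12 (SE 0.24, adjusted p = 0.793) in PBC against control and 0.95 (SE 0.26, adjusted p = 0.0806) in PBC against PSC were not called.

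Because Col13a1 ran against most other chains, its 250 bases before the RefSeq start are shown, on the minus strand at chr10:61979109-61979358 (GRCm38.p6), with its 1 TATAAA in capitals.
Col13a1: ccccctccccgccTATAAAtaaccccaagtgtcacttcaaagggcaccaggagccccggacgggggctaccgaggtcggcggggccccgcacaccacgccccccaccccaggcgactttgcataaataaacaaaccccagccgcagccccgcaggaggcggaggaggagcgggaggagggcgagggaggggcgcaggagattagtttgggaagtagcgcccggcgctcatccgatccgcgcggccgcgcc
Its GC content was 68.8%, and it held no CCAAT and no GGGCGG. The remaining tested chains, Col7a1, Col8a2, Col23a1, Col25a1 and Col28a1, had values of 0 to 105 normalised reads and were not called in any comparison. Col23a1, a transmembrane collagen, had 69.6, 105 and 63.5 normalised reads in PBC livers, 15.0, 38.8 and 34.5 in PSC livers and 15.5, 30.8, 15.3 and 63.9 in control livers, with PBC livers above PSC livers and overlapping the controls. Its difference of 1.52 (SE 0.54, adjusted p = 0.0881) in PBC against control was not called, and it passed without control 4 (adjusted p = 0.0319). Col25a1, a transmembrane collagen of neurons, had 32.3, 14.3 and 31.7 normalised reads in PBC livers, 5.63, 0 and 0 in PSC livers and 0, 8.99, 17.9 and 11.1 in control livers. Its PBC livers lay above the PSC livers and overlapped the controls. It had no read in PSC 13, PSC 14 or control 1, and at most 15 reads in any library. Its difference of PBC against PSC was 3.77 (SE 1.14, adjusted p = 0.111), with an unadjusted p of 0.00551, and it was not called, nor was it in any alternative that tested it (adjusted p from 0.0542 to 0.351), the stricter filter having left it out. It differed by 1.89 (SE 1.07, adjusted p = 0.281) in PBC and by -1.88 (SE 1.07, adjusted p = 0.259) in PSC against controls.

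The filter left out 14 of the 44 genes. Col9a1, Col19a1 and Col26a1 had no read in any library. Since 1 fragment appears to be counted as 2 reads, a count of 0 allows up to 3 fragments, worth 5.63 to 15.3 normalised reads depending on the library, a limit for counting error only. The genes just outside the filter were Col9a2 and Col17a1, each at 10 or more in 2 libraries, with highest values of 33.9 and 23.6. Just inside it, Col28a1 reached 10 in 3 libraries, with a highest value of 37.8, and Col7a1 in 4, with a highest value of 25.7.

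To compare levels between chains, values were divided by the length of each gene's exons in kilobases (GENCODE vM21). These levels are a description and were not tested. No difference between genes other than length was corrected for, so ranks and ratios between chains are approximate. Col18a1 was the highest collagen in all 3 groups, at 8117 ± 1882 normalised reads per kilobase in PBC livers, 5907 ± 369.6 in PSC livers and 4269 ± 609 in control livers (SD, n = 3, 3 and 4). Col3a1 was second in all 3, at 771 ± 350.1 in PBC livers, 4323 ± 335 in PSC livers and 288 ± 56.6 in control livers. Col1a1 ranked 8 in PBC livers, 4 in PSC livers and 12 in control livers. Col5a3 ranked 5 in PBC livers, 8 in PSC livers and 4 in control livers.

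The summed level of the 30 chains was 9115 to 12622 normalised reads per kilobase in PBC livers, 15472 to 15828 in PSC livers and 5099.9 to 6437 in control livers. Fibrillar chains made up 21.0, 18.1 and 10.9% of that sum in PBC livers, 46.2, 48.0 and 48.2% in PSC livers and 11.9, 9.20, 13.0 and 10.7% in control livers. PBC 7 and PBC 8 were above all controls and PBC 9 was inside their range, while every PSC liver was above all others. Col18a1 alone took 66.8 to 78.3% in PBC livers, 35.7 to 39.7% in PSC livers and 73.9 to 80.2% in control livers. With Col18a1 left out, fibrillar chains made up 50.4 to 63.2% in PBC livers, 75.0 to 76.7% in PSC livers and 42.7 to 50.3% in control livers, and the groups no longer overlapped, although PBC 9 and control 3 lay side by side.

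**Figure D3:**
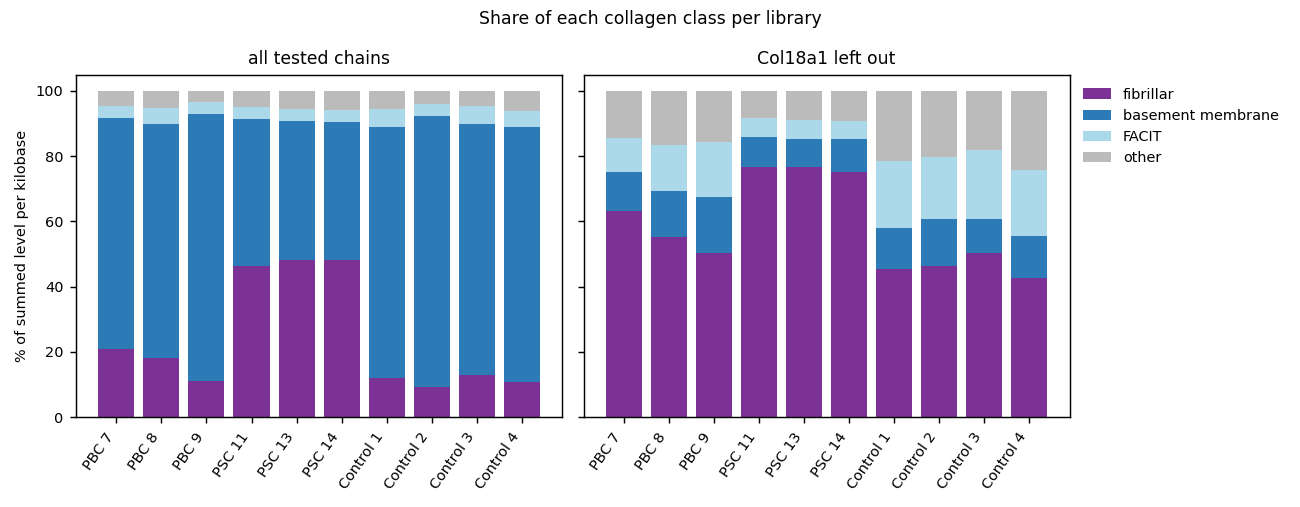
Share of each collagen class, in percent of the summed level per kilobase, in each library from PBC to PSC to control, for all tested chains (left) and with Col18a1 left out (right). The fibrillar share is 46.2 to 48.2% in the PSC livers at left, above all PBC and control livers.

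Chains that assemble into 1 molecule did not all keep a fixed ratio of levels per kilobase. Col1a1 over Col1a2 was 0.524, 0.332 and 0.333 in PBC livers, 0.485, 0.514 and 0.582 in PSC livers and 0.329, 0.173, 0.180 and 0.182 in control livers. Every diseased liver was above every control, though control 1 nearly reached PBC 8, and the ratio stayed below 1 in all 10 libraries. Col5a1 over Col5a2 was 0.723 ± 0.133 in PBC livers, 0.343 ± 0.0914 in PSC livers and 1.23 ± 0.202 in control livers (SD), with the groups apart. Col6a3 over Col6a1 was 0.211 ± 0.0533 in PBC livers, 0.748 ± 0.0717 in PSC livers and 0.275 ± 0.0708 in control livers, and only the PSC livers stood apart. Col4a1 over Col4a2 was 0.381 ± 0.0714 in PBC livers, 0.400 ± 0.0515 in PSC livers and 0.435 ± 0.0633 in control livers, and its groups overlapped. So did those of Col6a1 over Col6a2, at 6.65 ± 1.69 in PBC livers, 7.16 ± 0.307 in PSC livers and 5.66 ± 1.12 in control livers. With the longest transcript as length, these means were 5.15, 5.54 and 4.38. Col5a3 over Col5a1 also overlapped, at 9.12 ± 2.55 in PBC livers, 6.66 ± 2.28 in PSC livers and 6.19 ± 3.49 in control livers. Col3a1 over Col1a1, chains of different molecules that share fibrils, was 4.64 ± 1.16 in PBC livers, 5.10 ± 1.06 in PSC livers and 13.8 ± 6.96 in control livers, with every control above every diseased liver.

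**Figure D4:**
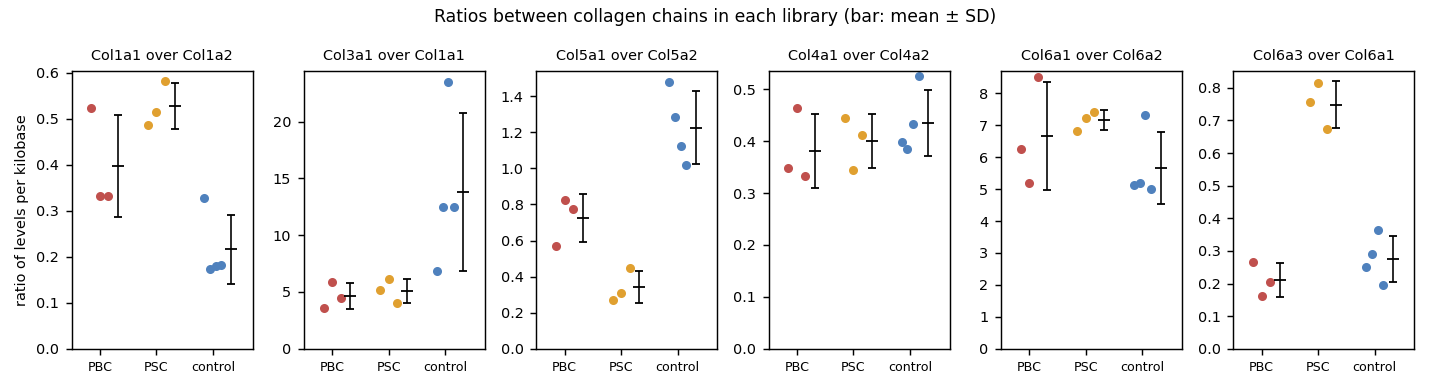
Ratio of levels per kilobase between pairs of collagen chains in each library, with PBC, PSC and control livers from left to right and bars for the mean ± SD. Col1a1 over Col1a2 lies between 0.485 and 0.582 in PSC livers, above all 4 controls, while the groups overlap for Col4a1 over Col4a2.

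Genes that fold, process and secrete collagen were examined beside the chains. Over all tested models, as above, 7.6% were called higher and 2.34% lower in PBC livers against controls, and 8.25% higher and 6.48% lower in PSC livers, and the counts of the lists that follow stand beside these shares. Of 24 tested assembly genes, 3 rose in PBC livers against controls, with a median log2 difference of 0.28, and 8 rose in PSC livers, with a median of 0.55. Of these calls, 1 of 3 in PBC and 4 of 8 in PSC livers were kept under all 19 alternatives. In PBC livers the genes that rose were Creb3l1, a transcription factor held in the endoplasmic reticulum membrane, by 1.69 (SE 0.28, adjusted p = 0.00246), Mia3, which loads procollagen into transport carriers, by 0.94 (SE 0.21, adjusted p = 0.0145), and Plod3, a lysyl hydroxylase, by 0.74 (SE 0.21, adjusted p = 0.0372). The Mia3 call was lost without PBC 7 or 9, and with the third group left out (adjusted p from 0.0544 to 0.0853), and the Plod3 call without PBC 7 or 9, or PSC 11, 13 or 14, or control 1, 3 or 4, and with TMM scaling, equal totals, edgeR or the third group left out (adjusted p from 0.0535 to 0.155). In PSC livers the 4 with the smallest adjusted p were Creb3l1, by 1.99 (SE 0.28, adjusted p = 0.000719), Adamts2, the procollagen N-proteinase, by 1.69 (SE 0.28, adjusted p = 0.00208), Pcolce, which enhances cutting of the C-propeptide, by 1.19 (SE 0.20, adjusted p = 0.00229), and Serpinh1, the collagen chaperone HSP47, by 1.44 (SE 0.29, adjusted p = 0.00601). These 4 kept their calls, while Fkbp10 (7 of 19, adjusted p from 0.0506 to 0.121), P3h3 (4 of 19, adjusted p from 0.0666 to 0.16), Crtap (2 of 19, adjusted p from 0.0541 to 0.0629) and Mia3 (2 of 19, adjusted p from 0.0544 to 0.0602) lost theirs in some alternatives. Serpinh1 had 945, 1154 and 649.6 normalised reads in PBC livers, 1936, 2268 and 3299.9 in PSC livers and 1207, 567, 894 and 1058 in control livers. Its PBC livers overlapped the controls, its PSC livers were above both, and it was lower in PBC than in PSC livers, with a difference of -1.45 (SE 0.31, adjusted p = 0.0275), a call lost without PBC 7 or 9, or PSC 13 or 14 (adjusted p from 0.0669 to 0.158).

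Among the 5 lysyl oxidases, which crosslink collagen, Loxl1 rose in PBC livers by 1.52 (SE 0.41, adjusted p = 0.0328) and in PSC livers by 2.54 (SE 0.41, adjusted p = 0.00168). Loxl2 rose in PSC livers by 1.50 (SE 0.39, adjusted p = 0.0217). The Loxl1 call in PBC was lost without PBC 7, or PSC 14, or control 2, 3 or 4, and with equal totals or the third group left out (adjusted p from 0.0518 to 0.138), and the Loxl2 call without PSC 11 or 14, and with equal totals (adjusted p from 0.0516 to 0.119). Of 9 tested collagen receptor genes, Ddr1, a receptor tyrosine kinase for collagen, rose in PSC livers by 2.13 (SE 0.34, adjusted p = 0.00169) and Mrc2, which takes up collagen for breakdown, by 1.72 (SE 0.35, adjusted p = 0.00622). In PBC livers the difference was 0.77 (SE 0.34, adjusted p = 0.172) for Ddr1 and 0.84 (SE 0.35, adjusted p = 0.14) for Mrc2, and neither was called. Ddr2 ran the other way in PSC livers, with a difference of -1.87 (adjusted p = 0.07) that was not called. It was called lower without PBC 8 or 9, and with DESeq2 or the third group left out (adjusted p from 0.0149 to 0.0366). At an unadjusted p under 0.05, 2 receptors were higher and 1 lower in PBC livers, and 3 and 1 in PSC livers.

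Of 10 tested genes whose products bind fibrils, 2 rose in PBC livers, where 7.6% of all models were called higher. In PSC livers 4 rose and 1 fell, where 8.25% were called higher and 6.48% lower. The list's median log2 difference from controls was -0.08 in PBC and 0.94 in PSC livers. In PBC livers 0 were called lower, and 0 to 3 over the alternatives. Without PBC 8, Fmod (-1.68, adjusted p = 0.0254), Lum (-0.76, adjusted p = 0.045) and Ogn (-2.62, adjusted p = 0.0325) were called lower there. Fn1, fibronectin, rose in PBC livers by 1.44 (SE 0.29, adjusted p = 0.00791), and Bgn, the proteoglycan biglycan, by 0.86 (SE 0.21, adjusted p = 0.0216), a call lost without PBC 7 or 9, and with equal totals or the third group left out (adjusted p from 0.0561 to 0.0878). In PSC livers Bgn rose by 1.23 (SE 0.21, adjusted p = 0.00232), the collagen-binding glycoprotein gene Sparc by 1.51 (SE 0.26, adjusted p = 0.00254), Lum, lumican, by 1.40 (SE 0.29, adjusted p = 0.00722) and Tnxb, tenascin X, by 1.11 (SE 0.31, adjusted p = 0.0302). Ogn, osteoglycin, fell there to 0.190-fold of the control level on the fitted scale (adjusted p = 0.0498). The Tnxb call was lost without PSC 11, 13 or 14, or control 2 or 3 (adjusted p from 0.0522 to 0.104), and the Ogn call without PBC 7, or PSC 11, 13 or 14, or control 1, 3 or 4, and with a pseudocount of 0.5, no filter, TMM scaling or equal totals (adjusted p from 0.051 to 0.152). Lum and Sparc were lower in PBC than in PSC livers, with differences of -1.79 (SE 0.31, adjusted p = 0.00869) for Lum and -1.57 (SE 0.28, adjusted p = 0.0106) for Sparc. The Lum call was lost without PSC 13 or 14 (adjusted p from 0.0554 to 0.0637), and the Sparc call without PSC 13 or 14 (adjusted p from 0.0569 to 0.0709).

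Of 15 laminin, nidogen and heparan sulfate proteoglycan genes of the basement membrane, 2 rose in PBC livers and 8 in PSC livers, beside 7.6% and 8.25% of all models. Under all 19 alternatives 0 of the 2 and 4 of the 8 kept their calls, and edgeR called 6 higher in PSC livers. In PBC livers the laminin β chain gene Lamb1 rose by 0.83 (SE 0.22, adjusted p = 0.0317), and Lamb2, another β chain gene, by 0.82 (SE 0.24, adjusted p = 0.0445). The Lamb1 call was lost without PBC 7 or 9, or PSC 13 or 14, or control 1 or 4, and with equal totals or the third group left out (adjusted p from 0.0534 to 0.115), and the Lamb2 call without PBC 7 or 9, or PSC 11, 13 or 14, or control 1, 2, 3 or 4, and with no filter, equal totals or the third group left out (adjusted p from 0.0552 to 0.172). In PSC livers the 4 with the smallest adjusted p were Lamb1, by 1.41 (SE 0.22, adjusted p = 0.00145), the laminin α chain genes Lama2, by 2.16 (SE 0.34, adjusted p = 0.00153), and Lama5, by 1.99 (SE 0.42, adjusted p = 0.00779), and Lamb2, by 1.16 (SE 0.24, adjusted p = 0.00686). These 4 kept their calls, while Lamc1 (14 of 19, adjusted p from 0.0526 to 0.173), Lamb3 (12 of 19, adjusted p from 0.0512 to 0.164), Agrn (5 of 19, adjusted p from 0.059 to 0.121) and Hspg2 (2 of 19, adjusted p from 0.0599 to 0.0918) lost theirs in some alternatives. Lama2 was lower in PBC than in PSC livers, with a difference of -1.84 (SE 0.36, adjusted p = 0.0188), a call lost without PBC 9, or PSC 13 or 14 (adjusted p from 0.0562 to 0.12).

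**Figure D5:**
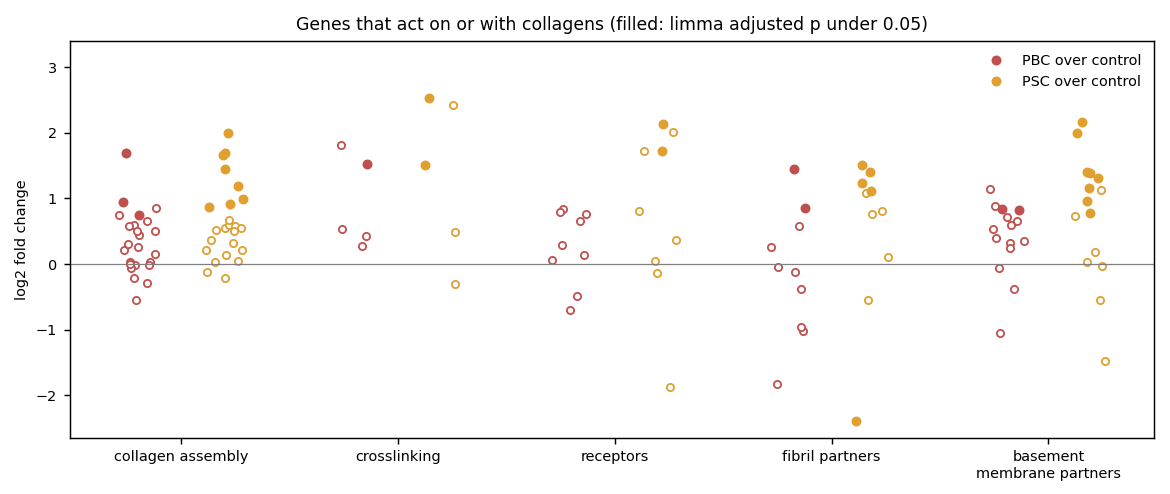
Log2 fold change over control of each tested gene of 5 lists (collagen assembly, crosslinking, receptors, fibril partners and basement membrane partners) in PBC and PSC livers; filled points are called at a limma adjusted p under 0.05. Filled points number 3 in PBC and 8 in PSC livers among assembly genes, and 2 and 8 among basement membrane partners.

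Markers of the liver's collagen-producing and other cells are given beside these genes, and their part in the collagen differences was not tested. Their counts, too, stand beside 7.6% of all models called higher in PBC livers, and 8.25% called higher and 6.48% lower in PSC livers. The 9 stellate cell markers summed to 20404 to 22742 normalised reads in PBC livers, 19259 to 20050.4 in PSC livers and 17965 to 22624 in control livers. Their median log2 difference from controls was -0.23 in PBC and -0.22 in PSC livers. In PBC livers 0 were called by limma (3 higher and 0 lower at an unadjusted p under 0.05, 0 and 0 in edgeR, 1 and 0 in DESeq2). Among them Pdgfrb differed there by 0.74 (adjusted p = 0.0519). It passed with a pseudocount of 0.5, the stricter filter or DESeq2 (adjusted p from 0.0288 to 0.04998). In PSC livers limma called only Pdgfrb, higher, and this call was kept under all 19 alternatives. At an unadjusted p under 0.05 there were 2 higher and 1 lower in PSC livers, with 1 and 0 in edgeR and 1 and 1 in DESeq2. Over the alternatives 0 to 1 were called lower in each model. The 11 portal fibroblast markers summed to 3169.8 to 4173 normalised reads in PBC livers, 5105 to 8781 in PSC livers and 1701 to 2659 in control livers, and 6 of 10 tested rose in each model, of which 3 in PBC and 5 in PSC livers were kept under all 19 alternatives, apart from the stricter filter for Pi16, which it left out. The 2 sets were not the same. Entpd2, Fbln2, Eln and Pi16 rose in both, Thy1 and Clec3b in PBC livers only, and Dpt and Fbln1 in PSC livers only. The kept calls were Clec3b, Pi16 and Thy1 in PBC livers, and all but Fbln1 in PSC livers. Thy1 was called higher in PBC than in PSC livers under all alternatives. Dpt was called lower there, a call lost without PSC 13 or 14 (adjusted p from 0.0738 to 0.0748). Which cells the Thy1 RNA came from was not tested, and the 3 T cell markers were also called higher in PBC than in PSC livers. Of those 3 calls, 2 were lost in some alternatives. The 6 myofibroblast and smooth muscle markers summed to 2466 to 4223 normalised reads in PBC livers, 5588 to 9326 in PSC livers and 1927 to 4665 in control livers. Of these Myh11 was called higher in PBC livers, a call lost in 6 alternatives, and Acta2 and Tagln were called higher in PSC livers, the call for Tagln being lost in 5.

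The 7 cholangiocyte markers, of the cells lining bile ducts, summed to 10631 to 14253 normalised reads in PBC livers, 54397 to 95289 in PSC livers and 8202 to 13497 in control livers. In PBC livers Sox9 and Krt19 were called higher, and the Krt19 call was lost in 15 of 19 alternatives (adjusted p from 0.0506 to 0.138). In PSC livers 5 were called higher, of which 4 were kept under all 19. Of 5 macrophage markers, 4 rose in PBC livers, with 3 kept, and 1 rose in PSC livers and was kept. All 4 neutrophil markers rose in PBC livers and kept their calls. In PSC livers 3 neutrophil markers were called higher, but edgeR called 1 and DESeq2 2, and the calls for S100a8 and S100a9 were lost in 7 and 6 alternatives, both tools among them. All 3 T cell markers rose in PBC livers, 2 of them under all 19 alternatives, and they summed to 1003 to 1303 there, against 289.8 to 375 in PSC livers and 265 to 534 in control livers. Of 7 endothelial markers, Vwf was called higher in both models and Kdr lower in PSC livers. The Vwf call was lost in 12 alternatives in PBC and in 4 in PSC livers, and the Kdr call in 7. The 5 hepatocyte markers summed to 8593781 to 12700088 normalised reads in PBC livers, 5566834 to 6695671 in PSC livers and 8415369 to 9655103 in control livers. By limma 0 of them were called in either model, though at an unadjusted p under 0.05 there was 1 higher in PBC livers and 1 lower in PSC livers, with 2 lower in PSC livers by edgeR and 3 by DESeq2. In PBC livers edgeR called 0 higher and DESeq2 1. This was Tat, which also passed with the stricter filter or without PBC 7 (adjusted p from 0.0295 to 0.0497). Of 6 mesothelial markers 0 were called by limma, with 1 lower in PSC livers at an unadjusted p under 0.05 and by DESeq2 and 0 by edgeR, and no marker of any list was at 0 in all libraries. In PBC against PSC, limma also called Spp1 and Epcam lower, and Cd3d, Cd3e, Cd3g, Ltf, Ly6g and the stellate marker Ecm1 higher. Of all models 1.13% were called lower and 1.11% higher there. Among these markers, only the calls for Spp1 and Cd3g were lost in no alternative. Limma called 0 hepatocyte markers there, with 3 higher at an unadjusted p under 0.05, 1 in edgeR and 3 in DESeq2.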

How the data were processed

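Bulk liver RNA of 10 mice was measured, with 3 PBC, 3 PSC and 4 control libraries. The authors deposited 1 table of normalised signal, that is reads per gene model divided by a DESeq2 size factor for each library, on FASTDB gene models with mm10 coordinates, per the labels and the file headers. The submitters' processing notes list STAR 2.4.0, SAMtools, Picard, FastQC and DESeq2 and the mm10 build; the counting tool and its use of strand were not given in the sources used here. Within a library, 100% of the values fell within 0.1 read of a whole multiple of what 1 read was worth (0.938 to 2.55), so the reads were recovered. Models with 2 reads outnumbered those with 1 (means of 2263 and 573 a library), so that 1 fragment appears to be counted as 2 reads. The depth in reads then overstates the number of independent molecules. The limit given for a count of 0 covers counting error only, while the standard errors are from the limma fit and rest on the spread of livers within groups.

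Models at 10 or more in 3 or more libraries were tested with limma 3.58.1 in R 4.3.3 (empirical Bayes with an intensity trend) on log2(value + 1), which understates the change of low genes, with all 10 libraries and 3 group means in 1 fit and Benjamini-Hochberg adjustment over 18390 models. The script was tested on simulated data. edgeR 4.0.16 and DESeq2 1.42.0 on the recovered reads were alternatives. For the 3 comparisons in the order PBC against control, PSC against control and PBC against PSC, edgeR called 1225, 1436 and 203 models higher and 345, 1176 and 213 lower, and DESeq2 called 1660, 1878 and 590 higher and 909, 1929 and 623 lower. Other alternatives were pseudocounts of 0.5 and 5, no filter, a filter at 50, TMM scaling, equal totals, a fit without the third group, and each library left out.

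The members and the lists were chosen with earlier results of these data known. Named genes are all collagen genes called in any comparison, the chains of types I, III to VI, XII, XIV, XV and XVIII most studied in liver, chains whose values bear on these, and from each list up to 4 genes called in each direction with the smallest adjusted p. Levels per kilobase used the union of exons in GENCODE vM21; sequences are from RefSeq (GRCm38.p6). No correlation between genes across libraries is given, since the libraries form separate groups. The labels give no batch.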

Additional observations from a re-analysis of the deposited data

Results flagged for a closer look

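For 8 collagen genes the change against the shared controls differed between the models, by the limma test of PBC against PSC itself. The log2 difference between the 2 changes was -2.43 for Col1a1, -1.99 for Col1a2, -2.58 for Col3a1, -1.61 for Col5a2, -1.15 for Col4a1, -1.08 for Col4a2, -2.42 for Col6a3 and -1.35 for Col8a1. Each was lower in all 3 PBC livers than in all 3 PSC livers. These are the libraries that the test itself used, so this separation adds no separate evidence.

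In the control group, Col28a1 was 33.7 normalised reads in control 1, far from 2.57, 5.11 and 0 in controls 2 to 4. Its gap to the nearest control, over the range of the group, was 0.848, above Dixon's 95% critical value for 4 samples. Of 30 genes examined in the control group this was the only such value, and chance alone flags about 1 group in 20.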

How the results depend on the processing

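No paired analysis was possible because the groups share no replicate numbers (PBC 7 to 9, PSC 11, 13 and 14, controls 1 to 4). Over 19 alternatives, 27 of the 38 collagen calls were kept in all, 9 of 13 in PBC against control, 14 of 17 in PSC against control and 4 of 8 in PBC against PSC (Col1a2, Col3a1, Col5a2 and Col6a3), and no called gene changed sign. Of 1683 values of a gene, comparison and alternative, 64 were calls lost and 23 calls gained, and 44 changed the sign of a difference that was not called; the causes were not tested.

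The 2 collagen genes lower in PSC livers than in controls became 0 with no filter and 0 with equal totals, and 0 to 2 with 1 library left out. That count was 0 without PSC 11, PSC 13, PSC 14, control 2 or control 4, and 1 without PBC 7, PBC 9, control 1 or control 3. The count of 0 higher in PBC than in PSC livers became 2 in DESeq2. The 8 lower in PBC than in PSC livers became 4 to 9 with 1 library left out, 4 without PSC 14 and 5 without PSC 11. Those higher numbered 9 to 14 in PBC and 14 to 16 in PSC livers against controls with 1 library left out.

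Over all tested models and all alternatives, 684 to 1818 were called higher and 65 to 1574 lower in PBC against control, 711 to 1915 and 251 to 1929 in PSC against control, and 59 to 590 and 42 to 623 in PBC against PSC. Equal totals moved the median log2 difference of all models in PBC against control to -0.12, beside 0.01 on the deposited scale; the collagen genes still numbered 11 higher and 0 lower there. With the longest transcript as length, an alternative chosen after seeing the data, the mean fibrillar share was 14.2% in PBC, 43.3% in PSC and 9.39% in control livers, beside 16.7%, 47.5% and 11.2% with the exon union. Leaving out Col18a1 was also chosen after seeing the data. A RefSeq length was not run, since the table used here gives the span of a gene. Depth limits the genes with few reads, among them Col25a1, which had at most 15 in a library.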
